A study of Mus musculus with 2 samples.

Results

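The miR-29 family was measured on 7 of the 1900 miRNA probes of a mouse array, chosen by name. They are the 3p arms (mmu-miR-29a-3p, mmu-miR-29b-3p and mmu-miR-29c-3p) and the 5p arms of the 4 precursor hairpins (mmu-miR-29a-5p, mmu-miR-29b-1-5p, mmu-miR-29b-2-5p and mmu-miR-29c-5p). The prefix mmu, for mouse, is left out below. There were 2 arrays, 1 from the bevacizumab group and 1 from the control IgG group. In both groups, C57BL/6 mice aged 5 weeks carried ID-8 LUC2 cells in the peritoneal cavity, and antibody was given there at 5 mg/kg, 2 times a week, from day 14 until tumours were taken at day 42. The treated group received bevacizumab, an antibody raised against human VEGF-A, and the other group received control IgG. ID-8 is a mouse ovarian cancer line. The arrays do not show whether the antibody neutralised the mouse growth factor, and whether animals were pooled for an array is not in the labels. With 1 array per group no test between the groups exists, no p-value is given, and each difference compares these 2 arrays only.

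A miRNA hairpin is cut into a duplex, of which 1 strand, the guide, is loaded into an Argonaute protein and the other, the passenger, is mostly degraded. In the miR-29 family the 3p strand is the usual guide. It pairs through bases 2 to 8, the seed, with sites in messenger RNAs of the extracellular matrix, among them Col1a1, Col1a2, Col3a1, Eln and Fbn1, and of the DNA methyltransferases Dnmt3a and Dnmt3b. The family is abundant in fibroblasts and other mesenchymal cells, where TGF-beta signalling is known to lower it. No messenger RNA was measured on these arrays.

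The mature 3p strands are shown because the arrays read them as separate probes although they differ by few bases. They are written 5′ to 3′ from RefSeq on GRCm38.p6, with the seed in capitals.
miR-29a-3p: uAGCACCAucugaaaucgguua
miR-29b-3p: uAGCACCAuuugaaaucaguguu
miR-29c-3p: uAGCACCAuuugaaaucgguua
All 3 carry the seed AGCACCA, whose complement in a target is TGGTGCT, and no other mature mouse miRNA in the RefSeq table shares it. Counted from 1 at the 5′ end, miR-29a-3p and miR-29c-3p differ by a single base, C10U. miR-29c-3p and miR-29b-3p share their first 17 bases and differ by G18A, U21G and A22U over the length of the shorter. How much signal the 3 probes share through such near-identity was not tested.

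The 5p strands have 4 different seeds, again in capitals.
miR-29a-5p: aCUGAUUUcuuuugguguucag
miR-29b-1-5p: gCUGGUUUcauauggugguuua
miR-29b-2-5p: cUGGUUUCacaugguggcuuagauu
miR-29c-5p: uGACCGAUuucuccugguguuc
miR-29b-3p has 2 sources, which the array cannot separate, since both hairpins yield the same 3p strand with different 5p strands. The hairpins are shown with both mature arms in capitals.
Mir29b-1: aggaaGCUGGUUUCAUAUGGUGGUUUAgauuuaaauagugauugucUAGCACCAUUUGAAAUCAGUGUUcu
Mir29b-2: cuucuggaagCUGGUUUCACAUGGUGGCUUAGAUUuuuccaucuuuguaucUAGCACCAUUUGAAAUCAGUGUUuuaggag
Mir29a (chr6:31062660-31062747) and Mir29b-1 (chr6:31063023-31063093) lie 275 bases apart on the minus strand of chromosome 6, and no other gene of the RefSeq table overlaps them. Mir29b-2 (chr1:195037040-195037120) and Mir29c (chr1:195037547-195037634) lie 426 bases apart on the plus strand of chromosome 1, inside the bounds of the long non-coding RNA gene A330023F24Rik.

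The bevacizumab array detected fewer miRNAs, but a typical shared miRNA was brighter there. It detected 940 of the 1900 probes, against 1416 on the control IgG array, where a probe counts as detected if it exceeds the blank spots' mean by over 2 of their SDs. Blank spots averaged 185 ± 4.03 intensity units on the bevacizumab array and 72.8 ± 0.828 on the control IgG array (trimmed mean ± SD over spots), so the same dim signal was harder to detect on the bevacizumab array. Over the 917 miRNAs detected on both arrays, the bevacizumab signal above the blanks was 1.77 times the control IgG signal at the median, and it was the higher of the pair for 672 of them (73.3%). All 5 spike probes were brighter on the bevacizumab array too, Spike Control 1 with a mean of 31647 units there and 6195 on the control IgG array. Signals below are spot intensities minus this blank mean. They are not normalized, and each miRNA has 1 spot per array.

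All 3 guide arms were bright and were lower on the bevacizumab array. miR-29a-3p read 307 units above the blanks on the bevacizumab array, against 2489 units on the control IgG array. miR-29b-3p read 142.0 units on the bevacizumab array, against 1586 on the control IgG array. miR-29c-3p read 119 units on the bevacizumab array, against 1183 on the control IgG array. Each control IgG signal was thus several times its bevacizumab signal, by 8.11-fold for miR-29a-3p, 11.2-fold for miR-29b-3p and 9.91-fold for miR-29c-3p before any normalization. In rank of signal among the 1900 probes of an array, the 3 stood at places 104, 189 and 210 on the bevacizumab array and at 20, 31 and 42 on the control IgG array. Their summed signal made up 0.314% of the signal of all detected miRNAs on the bevacizumab array and 1.78% on the control IgG array. The submitters' texts differ on whether the RNA came from tumour or from cells. If it came from bulk tumour, fewer cells that make a miRNA and less of it per cell cannot be told apart.

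**Figure D1:**
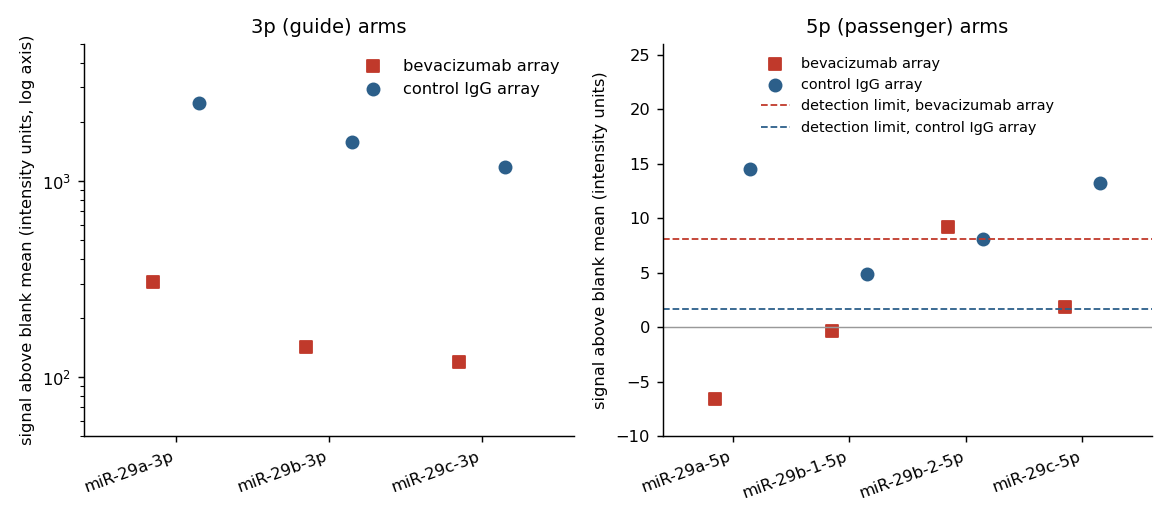
Signal of each miR-29 probe above the blank mean on the bevacizumab array (squares) and the control IgG array (circles), 1 spot each, with a log axis for the 3p arms on the left and a linear axis for the 5p arms on the right. The 3p arms lie at 119 to 307 units on the bevacizumab array and at 1183 to 2489 on the control IgG array, and the dashed lines at 8.06 and 1.66 units mark the detection limits of the 2 arrays.

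The passenger arms were dim on both arrays. All 4 passed the limit on the control IgG array, which was 1.66 units above its blanks, and 1 of them, miR-29b-2-5p, passed the bevacizumab limit of 8.06 units. miR-29a-5p read -6.56 units on the bevacizumab array, against 14.6 on the control IgG array. miR-29c-5p read 1.85 units on the bevacizumab array, against 13.2 on the control IgG array. miR-29b-1-5p read -0.31 units on the bevacizumab array, against 4.86 on the control IgG array. These 3 lay within the range of the blanks on the bevacizumab array, where 810, 310 and 466 of the 896 blank spots were at or above them. miR-29b-2-5p read 9.19 units on the bevacizumab array and 8.13 on the control IgG array, so it was just above the bevacizumab limit, and 48 of the 896 blank spots there (5.36%) reached it. Loss of detection was common at this brightness: of 472 other probes with control IgG signals between 4.86 and 14.6 units, 207 (43.9%) were not detected on the bevacizumab array, against 35.2% of all probes that the control IgG array detected.

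After correction for the blanks with an offset of 50 units and quantile normalization, after which the 2 arrays share 1 distribution, all 3 guide arms were at least 2-fold lower on the bevacizumab array. The background for that count is 917 miRNAs seen on both arrays, of which 11.6% were lower by that factor or more and 10.5% higher by it. The log2 difference, bevacizumab minus control IgG, was -2.88 ± 0.16 for miR-29b-3p, -2.67 ± 0.16 for miR-29c-3p and -2.50 ± 0.16 for miR-29a-3p, or 7.39-fold, 6.37-fold and 5.67-fold lower. The ± is the SD of a single difference implied by 5 control probes with 8 spots each, picked after their values were seen. This SD was computed on blank-subtracted signals without the offset or the quantile step, so its scale is not that of the differences. It holds the error from spot to spot and leaves out labelling, hybridisation and animals. From the lowest difference upward, the 3 took places 4, 9 and 14 of 917. Their median was -2.67, beside a median of 0.14 over all 917. miR-29b-2-5p was close to that overall median, at -0.01.

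With the blanks as background, miR-29b-3p and miR-29c-3p did not differ clearly in the size of their difference, whereas how far miR-29b-3p stood from miR-29a-3p varied with the processing. The largest gap, miR-29b-3p minus miR-29a-3p, was -0.38 on the log2 scale, which is 1.71 times the repeat-spot SD of 0.22 for a gap between differences. That gap was -0.61 with an offset of 0 and -0.60 with the blank mean subtracted, both 2.7 times that SD, and -0.26 with median scaling, 1.2 times it. With spike scaling, which like that SD has no offset or quantile step, the gap was -0.46, or 2.07 times it. The other gaps, -0.21 for miR-29b-3p minus miR-29c-3p and -0.17 for miR-29c-3p minus miR-29a-3p, were within that SD, but the second was -0.44 with an offset of 0. With local background in place of the blanks, miR-29b-3p minus miR-29c-3p was -3.19 and miR-29b-3p minus miR-29a-3p was -5.17. miR-29a-3p gave 54.0% of the summed signal of the 3 probes on the bevacizumab array and 47.3% on the control IgG array.

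**Figure D2:**
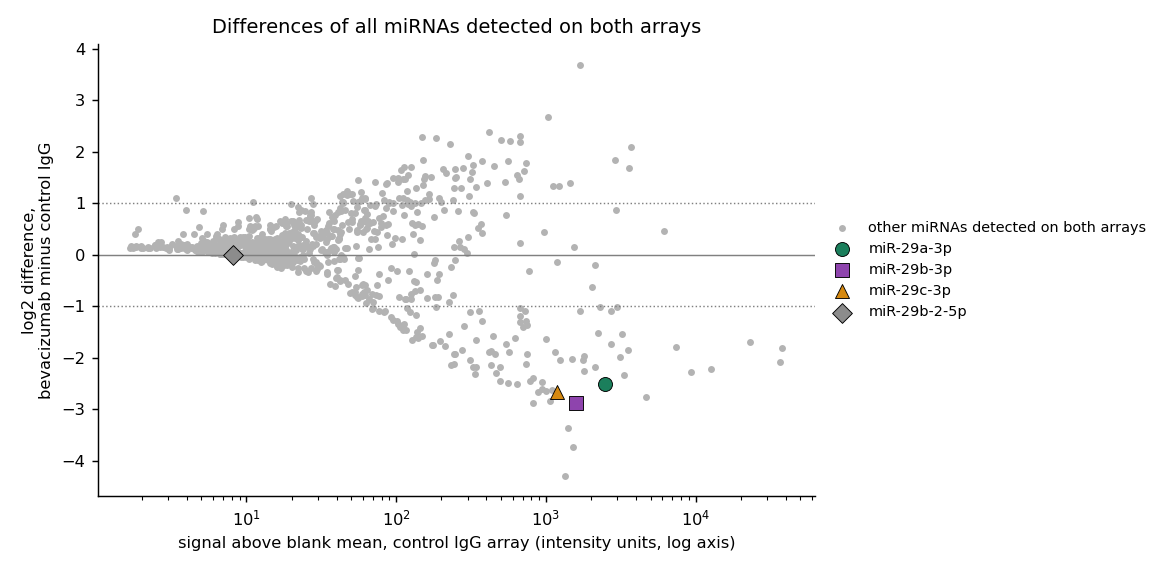
Log2 difference, bevacizumab minus control IgG, after offset and quantile normalization (y axis) against the signal on the control IgG array (x axis, log) for the 917 miRNAs detected on both arrays; dotted lines mark 2-fold. The 3 guide arms sit at -2.50 to -2.88 among miRNAs of like brightness that are mostly lower, and miR-29b-2-5p sits at -0.01 among dim ones.

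With the blanks as background, miRNAs bright on the control IgG array and AU-rich in sequence were lower in general. The guide arms are of that kind. The control IgG level also enters the difference, so choosing miRNAs that are bright there favours lower differences in advance. Of 20 other miRNAs with control IgG signals between 1183 and 2489 units, 13 were lower by 2-fold or more and 3 higher by 2-fold or more, with a median log2 difference of -1.74; 4 of the 20 were at or below miR-29a-3p and 3 at or below miR-29b-3p. The share of G and C is 40.9% in miR-29a-3p, 36.4% in miR-29c-3p and 34.8% in miR-29b-3p. Of 41 other miRNAs within that range, 22 (53.7%) were lower by 2-fold or more, and the median was -1.27. All 13 of those 41 with control IgG signals over 500 units passed that size, and their median was -2.40, or 0.35 with local background in place of the blanks. Among miRNAs with over 60% G and C, 12 of 343 were at least 2-fold lower (3.50%). Across the 785 of 917 miRNAs with a RefSeq sequence, G and C share and difference had a Pearson's r of 0.45, a description over miRNAs read on the same 2 arrays. The part of brightness or base composition in the miR-29 differences was not tested.

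The 5 miRNAs whose log2 difference was nearest the guide-arm median, over these 2 arrays, were miR-26b-5p (-2.66), miR-30e-5p (-2.64), miR-652-5p (-2.63), miR-195a-5p (-2.60) and miR-21a-5p (-2.75). With control IgG signals from 886 units for miR-26b-5p to 4647 for miR-21a-5p, all 5 were bright there too.

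Guide and passenger arms of one hairpin come from the same precursor, and on this scale their differences were far apart. For Mir29b-2, the only miR-29 hairpin with both arms detected on both arrays, the 3p arm differed by -2.88 and the 5p arm by -0.01, a gap of -2.88. The 3p probe also reads the strand from Mir29b-1, so its difference cannot be assigned to Mir29b-2. Among 214 other hairpins with both arms detected on both arrays, the median size of the gap was 0.46, and 3 had a gap at least as large as that of Mir29b-2 (1.40%). With an offset of 0 the gap was -3.23, and 11 of the 214 reached that size (5.14%). The scale leaves dim arms little room: the lowest level on the bevacizumab array would put miR-29b-2-5p only 0.21 below its control IgG level on the log2 scale. For the other passenger arms this limit was 0.13 (miR-29b-1-5p), 0.34 (miR-29c-5p) and 0.39 (miR-29a-5p). A large guide-arm fall therefore gives a large gap whatever the passenger arm did. For the other 3 hairpins the passenger was lost from detection while the guide remained above the limit, as happened to 1 arm in 173 of 445 other hairpins with both arms detected on the control IgG array (38.9%). As a lower bound on this scale, miR-29a-5p was at least 1.15-fold lower and miR-29c-5p at least 1.11-fold lower. These bounds make no allowance for the error from spot to spot, so they do not establish a fall. miR-29b-1-5p was too dim for a bound.

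**Figure D3:**
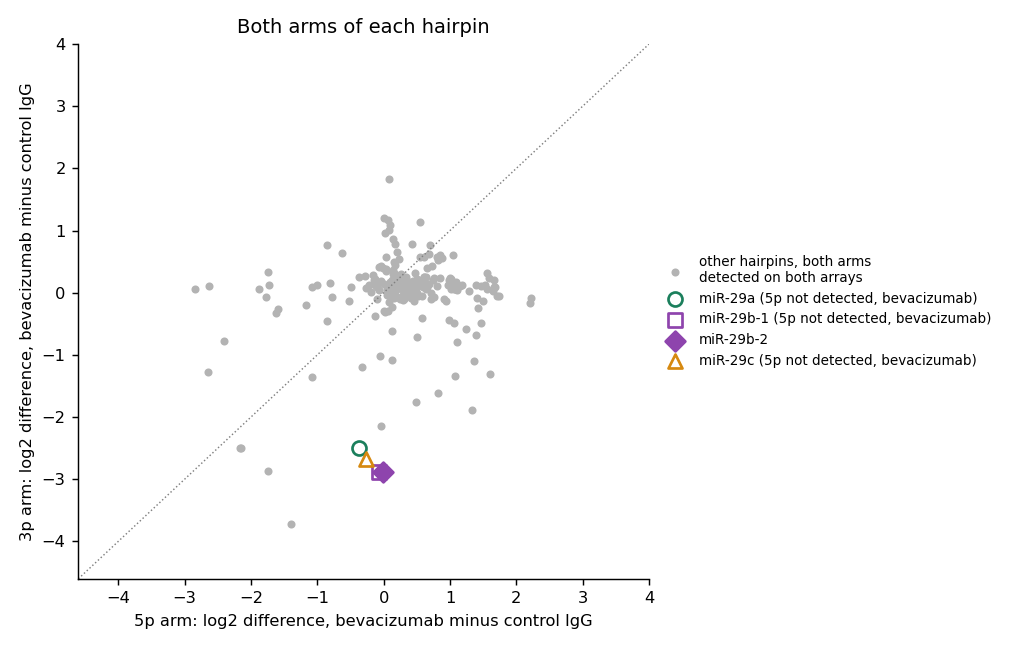
Log2 difference, bevacizumab minus control IgG, of the 3p arm (y axis) against that of the 5p arm (x axis) for 214 other hairpins with both arms detected on both arrays (grey) and the 4 miR-29 hairpins; open symbols have a 5p arm not detected on the bevacizumab array, and the dotted line marks equal differences. The miR-29 hairpins lie far below the line, with 3p differences of -2.50 to -2.88 and 5p differences between -0.37 and -0.01. The scale lets these 5p arms fall by at most 0.13 to 0.39, so their 3p falls alone place them there.

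The direction for the guide arms held under each scaling between the arrays that was tried, and the size did not. In the authors' deposited table, miR-29a-3p stood at 252 units in the bevacizumab column and 4929 in the control IgG column, miR-29b-3p at 117 and 3142, and miR-29c-3p at 98.0 and 2343. These are 19.5-fold, 26.9-fold and 23.9-fold lower (log2 -4.29, -4.75 and -4.58), in a table where 918 miRNAs are listed for both arrays, 32.5% of them lower by 2-fold or more and 2.94% higher. The authors' deposited table also listed miR-29b-2-5p, at 7.6 and 16.1 units, 2.12-fold lower. With spike scaling, which sets the arrays level on 5 control probes, 70.7% of 917 miRNAs were lower by 2-fold or more and 0.545% higher, and the guide arms were at -5.29 (miR-29a-3p), -5.76 (miR-29b-3p) and -5.58 (miR-29c-3p). Relative to the median of all miRNAs, the guide-arm median was -2.81 after quantile normalization, and -4.13 both with spike scaling and in the authors' deposited table. The last 2 had to match, since each multiplies the same blank-subtracted signals by a constant per array. They also lack the offset and the quantile step. With the blank mean subtracted before quantile normalization, without the offset, the value was -3.77. Lower miRNAs made up 52.5% of all 2-fold calls after quantile normalization, 67.9% with cyclic loess, 66.7% with median scaling, 99.2% with spike scaling, 91.7% in the authors' deposited table, 33.8% with an offset of 0 and 33.3% with the blank mean subtracted.

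**Figure D4:**
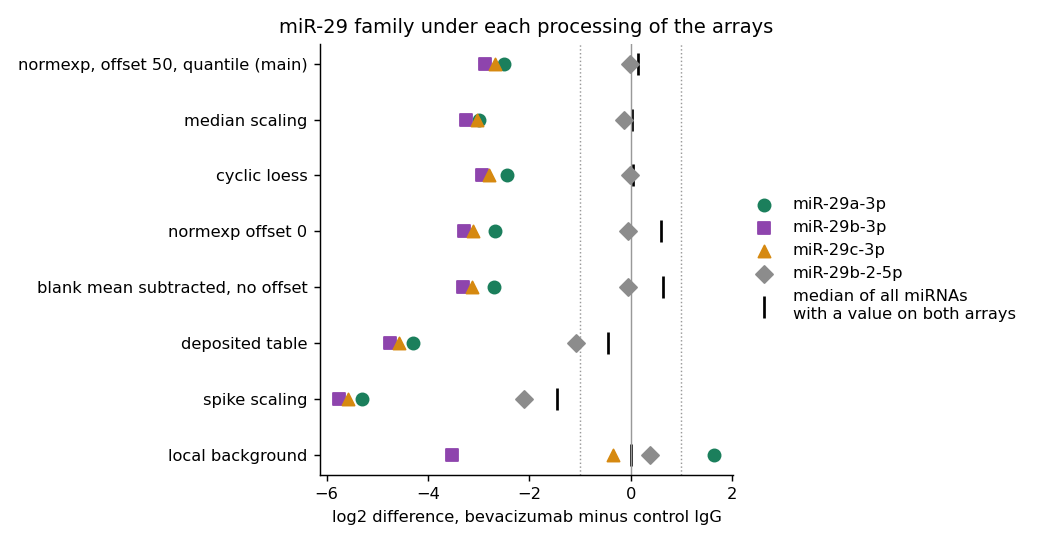
Log2 difference, bevacizumab minus control IgG (x axis), of the 3 guide arms and miR-29b-2-5p under 8 ways of processing the arrays (rows); vertical ticks mark the median of all miRNAs with a value on both arrays, and dotted lines mark 2-fold. miR-29b-3p lies between -2.88 and -5.76 in every row, whereas with local background miR-29a-3p lies at 1.64 and miR-29c-3p at -0.34.

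The local background was the exception, and it divided the family. With each spot's local background in place of the blanks, miR-29b-3p was at -3.53, miR-29c-3p at -0.34 and miR-29a-3p at 1.64, that is, higher on the bevacizumab array; of 917 miRNAs, 5.23% were then lower by 2-fold or more and 5.23% higher. For miR-29a-3p the local background was 326 units beside a spot of 492 on the bevacizumab array, and 2800 beside a spot of 2562 on the control IgG array, so that there the background exceeded the spot. For miR-29c-3p it was 72.1% of the spot on the bevacizumab array and 95.5% on the control IgG array. For miR-29b-3p it was 72.6% of the spot on the bevacizumab array and 47.2% on the control IgG array. miR-29a-3p and miR-29c-3p are adjacent spots of block 12, and miR-29b-3p is in block 22. On the control IgG array the 3 miRNA spots over 500 units in block 12 had local backgrounds of 95.5% to 109% of the spot, and the 4 in block 22 had 19.2% to 51.1%. The 6 other spots next to miR-29a-3p or miR-29c-3p were dim on the control IgG array, at 71.3 to 187 units, and their local backgrounds were 64.2 to 182 units (88.3% to 96.9% of the spot). The highest of these was that of miR-1839-3p, beside miR-29c-3p, and at blank spots the local background had a median of 63.3 units and a range of 57.5 to 74.2. Among all 91 miRNA spots over 500 units on the control IgG array, the local background exceeded the spot in 28.

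**Figure D5:**
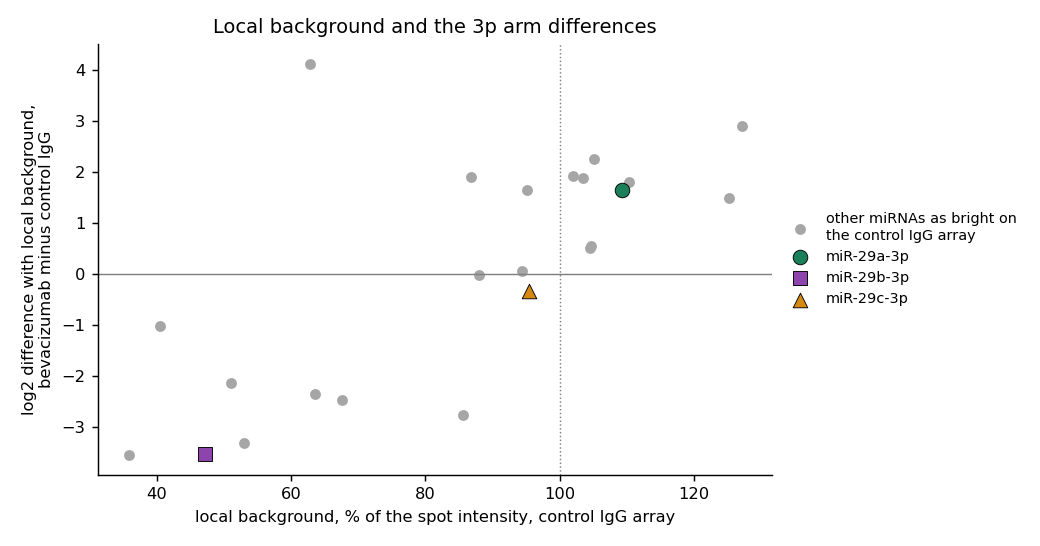
Log2 difference with local background correction, bevacizumab minus control IgG (y axis), against the local background as a percentage of the spot on the control IgG array (x axis), for the 3 guide arms and the 20 other miRNAs of like brightness there. miR-29b-3p, at 47.2%, lies at -3.53, and miR-29a-3p, at 109%, lies at 1.64 on the right, beyond the dotted line where background equals spot.

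With the blanks as background, other miRNAs with known roles in matrix and fibrosis were mostly lower. So were most other miRNAs as bright as the guide arms on the control IgG array. The list, compiled from general knowledge with earlier results of these arrays known, holds both arms of miR-21a and miR-214, the 5p arms of miR-199a and miR-199b with their shared 3p probe, miR-143-3p, miR-145a-5p, miR-133a-3p, miR-133b-3p, miR-30a-5p, miR-30c-5p, miR-26a-5p, miR-101a-3p, miR-192-5p, the 3p arms of miR-200a, miR-200b and miR-200c, miR-155-5p, miR-34a-5p, miR-18a-5p, miR-19a-3p, miR-19b-3p, let-7b-5p and let-7d-5p. Of these 26 probes, 17 were detected on the bevacizumab array and 26 on the control IgG array. Of the 17 detected on both, 16 were lower by 2-fold or more, none was higher by that factor, and the median log2 difference was -1.93; 2 were lower than miR-29a-3p. Over all 917 miRNAs the shares were 11.6% lower and 10.5% higher, with a median of 0.14. The 17 were bright, however, with a median control IgG signal of 741 units, against 22.2 units over the 917. Of the 20 other miRNAs as bright as the guide arms, 4 of which are on the list, 13 were lower by that factor, with a median of -1.74. The 2 sets are not matched in brightness: the 17 span 87.2 to 4647 units on the control IgG array, and the 20 span 1183 to 2489. Whether the list differs from other miRNAs of its brightness was not tested. The largest differences were those of miR-143-3p of smooth muscle (-3.72), miR-21a-5p, which promotes fibrosis in heart and kidney (-2.75), the single probe for the 3p arms of miR-199a and miR-199b, which are fibroblast miRNAs (-2.50), and miR-19b-3p of the miR-17-92 cluster (-2.30). The smallest were those of miR-214-3p, made from the same transcript as miR-199a (0.39, but -0.58 in the deposited table), let-7b-5p (-1.01), miR-30a-5p (-1.08) and miR-133a-3p of muscle (-1.18). With local background the median of the 17 was 0.38, and 5 were at least 2-fold lower. The median of the 20 as bright as the guide arms was then 0.52, and 8 of the 20 were lower on the bevacizumab array.

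Most markers of the cell types that a tumour piece can hold were dimmer on the bevacizumab array, where detection was also less frequent in general (49.5% of all 1900 probes, against 74.5% on the control IgG array). Over the 917 miRNAs detected on both arrays, 672 (73.3%) had the higher signal on the bevacizumab array. Of the 30 marker probes, detected on both arrays or not, 2 had the higher signal there. These were miR-214-3p, a fibroblast and mural marker, with 140.4 units on the bevacizumab array and 87.2 on the control IgG array, and miR-150-5p, of lymphocytes, with 44.2 units on the bevacizumab array and 21.1 on the control IgG array; both were singled out after their values were seen. Fibroblast and mural markers summed to 560 units on the bevacizumab array (7 of 8 probes detected) and 4379 on the control IgG array (8 of 8). Endothelial markers summed to 86.5 units on the bevacizumab array and 997 on the control IgG array, with 2 of 2 detected on each. Epithelial markers were detected with 1 of 7 probes on the bevacizumab array and 7 of 7 on the control IgG array, with sums of 40.0 and 582 units. Leukocyte markers summed to 90.9 units on the bevacizumab array (3 of 6 detected) and 352 on the control IgG array (6 of 6), and striated muscle markers to 473 (3 of 4) and 2831 (4 of 4). Erythroid markers summed to 149.9 units on the bevacizumab array (1 of 2) and 1699 on the control IgG array (2 of 2), and the hepatocyte marker miR-122-5p was detected on neither. These are signals before normalization. The 30 markers include probes not detected on the bevacizumab array, which the 917 leave out, and the 2 sets are not matched in brightness. Control IgG signals of the markers ranged from 0.26 units (miR-122-5p) to 1570 (miR-451a), against a median of 22.2 over the 917. Whether the markers differ from other miRNAs of their brightness was not tested. With local background, the median log2 difference of markers detected on both arrays was 0.13 for 2 endothelial probes and 0.50 for 3 striated muscle probes. It was -0.88 for 7 fibroblast and mural probes and -0.65 for 3 leukocyte probes. The 1 epithelial probe was at 0.38 and the 1 erythroid probe at -3.56. The part of cell makeup in the miR-29 differences was not tested.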

How the data were processed

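Total RNA was labelled with Cy5 and hybridised to Toray 3D-Gene miRNA arrays, per the labels' protocols. Per the file headers, the deposited scanner files hold linear spot and local background intensities (medians at 635 nm) from 3 scan gains joined by least squares, neither background-corrected nor normalized. The authors' deposited value table was also in intensity units: set against the scanner values, it was the spot minus the blank mean, scaled so that the listed miRNAs had a median of 25.0 on each array (largest departure 0.051 units), with dim miRNAs empty. The submitters' texts differ on the RNA, naming tumour and a RNeasy column in one place and cells and a miRNeasy column in another.

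Blank spots, with the highest and lowest 5% left out, set the detection limit (mean plus 2 SD). Spots were corrected with limma 3.58.1 normexp in R 4.3.3, taking the blanks as negative controls, with an offset of 50, followed by quantile normalization of the 1900 miRNA probes; the offset understates changes of dim miRNAs. These steps were tried on 2 simulated arrays built from the control IgG array, and the only requirement was that planted changes keep their direction at the median. Both simulated arrays had the control IgG blanks, so the unlike blanks of the 2 real arrays were not simulated. Calls use a fixed size of 2-fold. A lower bound sets the control IgG level against the probe's own bevacizumab level or, if higher, the lowest level detected on that array. Named miRNAs were the members, the 5 nearest in log2 difference to the guide-arm median, and the 4 largest and 4 smallest differences of the matrix and fibrosis list. Mature sequences came from RefSeq (GRCm38.p6) and matched all 7 members by name. The members, lists and settings were chosen with earlier results of these data known.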

Additional observations from a re-analysis of the deposited data

How the results depend on the processing

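No paired analysis was possible because each group has 1 array. Cyclic loess moved no guide arm by more than the repeat-spot SD. A detection limit of 5 SD and no detection filter could not move a guide arm, because all miRNA probes were normalized together whatever the filter. These 2 settings change only which miRNAs are counted, so they do not test the guide-arm differences. For miR-29a-3p, miR-29b-3p and miR-29c-3p, in that order, the log2 difference was -3.00, -3.26 and -3.03 with median scaling, -2.68, -3.28 and -3.11 with an offset of 0, -2.70, -3.30 and -3.13 after plain subtraction of the blank mean, -5.29, -5.76 and -5.58 with spike scaling, -4.29, -4.75 and -4.58 in the authors' deposited table, and 1.64, -3.53 and -0.34 after local background correction, the one setting that turned a guide arm. The median of the 3 was that of miR-29c-3p in each. miR-29b-2-5p was at -2.10 with spike scaling, -1.08 in the authors' deposited table and 0.37 by local background, and was not detected on the bevacizumab array at 5 SD. The number of members at least 2-fold lower was 3, but 1 with local background and 4 with spike scaling and in the deposited table. Over all miRNAs, 106 were at least 2-fold lower, against 648 with spike scaling, 298 in the deposited table and 48 by local background. The number at least 2-fold higher was 96, against 55 with median scaling, 61 with cyclic loess, 306 with an offset of 0, 314 after plain subtraction of the blank mean, 5 with spike scaling, 27 in the deposited table and 48 by local background. The causes were not tested. Signal over blanks limits the 5p arms: 3 of 4 gave no difference in any setting with a detection filter.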
